A study of Mus musculus with 10 samples.

Results

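Cytosolic ribosomal protein genes encode the proteins of the ribosome that translates nuclear messenger RNA. They were followed here in mouse aorta as the genes whose symbol has the form Rpl, Rps or Rplp with a number and, in some, a closing a, l, x or al, together with Rpsa. Of the 22180 genes measured under a symbol of their own, 64 had such a symbol: 37 of the large subunit, 24 of the small subunit and 3 of the stalk. Membership rests on the symbol alone, but the set was chosen with earlier results of these data known. Where a gene had more than 1 probe set, its brightest (by the mean of all 10 arrays) stood for it. The RefSeq gene table of assembly GRCm38.p6 holds 84 symbols of this form. Of the other 20, 13 were found on probe sets that carry several symbols and got no value of their own, and 7 were not analysed here. The rule also takes in the paralogs Rpl3l, Rpl10l, Rpl39l and Rps27l, as well as Rpl32l and the annotated pseudogenes Rpl6l and Rps4l.

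The arrays compare 5 aortas of ApoE knockout mice with 5 aortas of ApoE/IL-17 double knockout mice, and ask what loss of IL-17 changes in the aorta early in hyperlipidemia. All were male mice of C57BL/6 background given high fat food for 3 weeks, beginning at the age of 8 weeks, and killed at 11 weeks. Both groups lack apolipoprotein E, a carrier protein that clears lipoprotein remnants, so the control is itself a hyperlipidemic mouse. The double knockout came from crossing IL-17-/- mice into ApoE-/- mice, and the labels do not say which IL-17 gene was deleted. Both deletions are in every cell of the animal. Protocol text for the ApoE knockout animals speaks of a caspase-1 cross and of wild-type controls but not of IL-17, and so differs from that of the double knockout. No batch or scan date is given, and an effect of batch and an effect of genotype cannot be told apart. Below, a value is the deposited log2 signal of a probe set, values run in the order of replicates 1 to 5, and a difference is double knockout minus ApoE knockout.

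Each cytosolic ribosome joins a small subunit, which holds the messenger RNA and reads its codons, to a large subunit, which links amino acids and passes the new chain through an exit tunnel. The acidic stalk on the large subunit recruits the elongation factors. The messenger RNAs of these proteins are the classic terminal oligopyrimidine (TOP) messages: they begin with C followed by a run of pyrimidines, through which the kinase mTOR and the binding protein Larp1 control their translation. Since most of this control acts on translation, messenger RNA levels need not follow it. A few members also act outside the ribosome, such as Rpl5 and Rpl11, which bind Mdm2 and so stabilise p53.

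The RefSeq promoter table of GRCm38.p6 held 58 start-site windows for 49 of the 64 genes, and 32851 windows for 27025 genes in all. The stretches from 35 bases before to 15 bases from the start onward are shown for the 13 members that passed the test and have a window, and for Rps6, written along the transcribed strand. Where a gene has more than 1 window, the one with the longer tract is shown; the other start of Rps27l has a tract of 4 bases. Capitals mark an unbroken tract of C and T of at least 8 bases that comes within 5 bases of the annotated start. That definition was chosen after the windows had been seen. The first 6 belong to genes that were lower in the double knockout, of which 4 have a marked tract:
Rpl14, chr9:120571482-120571531, plus strand: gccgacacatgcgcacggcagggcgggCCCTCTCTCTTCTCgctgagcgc
Rps27l, chr9:66946051-66946100, plus strand: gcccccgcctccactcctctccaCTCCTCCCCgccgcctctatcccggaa
Rpl7a, chr2:26910772-26910821, plus strand: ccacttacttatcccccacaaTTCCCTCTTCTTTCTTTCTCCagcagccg
Rps9, chr7:3704006-3704055, plus strand: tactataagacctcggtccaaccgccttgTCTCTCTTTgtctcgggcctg
Rplp0, chr5:115559432-115559481, plus strand: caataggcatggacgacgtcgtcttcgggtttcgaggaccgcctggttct
Rps7, chr12:28635939-28635988, minus strand: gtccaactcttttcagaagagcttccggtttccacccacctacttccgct
The next 7 belong to genes that were higher in the double knockout, of which 2 have a marked tract:
Rplp2, chr7:141447616-141447665, plus strand: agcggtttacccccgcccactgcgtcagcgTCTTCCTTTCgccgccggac
Rps10, chr17:27635230-27635279, minus strand: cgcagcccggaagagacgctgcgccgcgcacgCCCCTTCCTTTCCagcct
Rps23, chr13:90923087-90923136, plus strand: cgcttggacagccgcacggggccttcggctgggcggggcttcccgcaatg
Rpl39, chrX:37085208-37085257, minus strand: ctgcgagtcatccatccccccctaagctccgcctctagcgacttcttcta
Rpl39l, chr16:10170193-10170242, plus strand: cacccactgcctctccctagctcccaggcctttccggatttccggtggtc
Rpl26, chr11:68901531-68901580, plus strand: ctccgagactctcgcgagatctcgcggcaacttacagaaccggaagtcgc
Rpl10l, chr12:66284387-66284436, minus strand: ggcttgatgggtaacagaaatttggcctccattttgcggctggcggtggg
The last is the start of Rps6, the S6 kinase substrate, whose call did not pass the test:
Rps6, chr4:86857353-86857402, minus strand: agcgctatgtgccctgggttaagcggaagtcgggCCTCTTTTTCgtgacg

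A tract of this kind was found in 20 of the 49 genes (40.8%), against 11.0% of all genes in the table. The longest among members, 21 bases, lies at Rpl7a. Counting only runs that begin with C within 5 bases of the start and go on for at least 5 bases, 12 members (24.5%) had one, against 13.4% of all genes. In the full windows of 300 bases, CCGGAAG (other strand CTTCCGG, which can overlap a pyrimidine tract) was found in 22 of 58 windows (37.9%), against 8.86% of all windows. TATAAA (other strand TTTATA) was found in 5 windows (8.62%, against 13.6%) and AAGATGGC (other strand GCCATCTT) in 2 (3.45%, against 2.75%). These are matches of letters only. Of the 20 members with a tract, 2 were higher in the double knockout and 4 lower, and the median difference was -0.10. Of the 29 with a shorter tract or none, 5 were higher and 2 lower, and the median was 0.01. The 15 members without a window held 1 lower gene, Rps29. Genes of both directions therefore had marked tracts, as Rpl14 and Rps10 show.

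Arrays correlated over all probe sets at 0.980 to 0.987 within the ApoE knockout, 0.972 to 0.988 within the double knockout and 0.964 to 0.980 between them. The arrays held smooth muscle and endothelial messages throughout, with Myh11 between 11.97 and 12.76 and Cdh5 between 11.19 and 11.78. Il17a read 4.20 to 4.54 in the ApoE knockout and 4.48 to 4.94 in the double knockout, a level at which the array does not check the deletion. Apoe read 6.07 to 6.47 and 6.83 to 7.26, higher in the double knockout by 0.67 without overlap (limma adjusted p = 0.0011), although both groups are labelled as lacking it. Where its probes lie relative to the deleted part is not known here. Olfactory, vomeronasal and taste receptor genes, taken as a class, served as a mark of background: 95% of the 1432 measured lay below 5.80. Whether single genes among them are used in the aorta was not tested. Dim probe sets as a class read higher in the double knockout, and 426 of these receptor genes were called higher and 12 lower, with a median difference of 0.29. Lower quartiles of the arrays were 4.49 to 4.53 in the ApoE knockout and 4.72 to 4.83 in the double knockout. In whole tissue, fewer cells of a type and less RNA per cell cannot be told apart.

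Across the 64 ribosomal protein genes, the double knockout had 7 higher and 7 lower than the ApoE knockout, and 50 did not pass the test (limma, Benjamini-Hochberg adjusted p under 0.05 over all 22180 genes). The share called in either direction was 21.9% of the members, against 30.3% of all genes tested. By direction it was 10.9% each way, against 22.8% of all genes called higher and 7.53% called lower. The median difference was -0.05 over the members and 0.10 over all genes, with 27 members above 0 and 37 below. Only Rps29 and Rplp2 differed by more than 1.5-fold, as did 1803 of all genes. Values of the groups did not overlap for 13 members, against 20.4% of all genes.

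The split between directions moved with the scaling of the arrays. After quantile normalization 2 members were higher and 5 lower, where 8.94% of all genes were higher and 11.2% lower and their median moved from 0.10 to -0.02. After centring each array on the median of its probe sets, 2 members rose and 27 fell, where 7.52% of all genes were called higher and 25.4% lower and their median was -0.11. After centring on genes above the receptor level, 8 were higher and 6 lower, where 25.7% of all genes were higher and 6.30% lower. Leaving out 1 array gave 5 to 7 higher and 3 to 10 lower, with 3 lower without ApoE knockout replicate 2, 4 without ApoE knockout replicate 3 or double knockout replicate 4, and 10 without double knockout replicate 2. The share of all genes called lower was 5.67%, 5.05%, 5.43% and 8.68% in these 4 fits.

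The direction also ran with the brightness of the probe set. Of 34 members with a mean of 9 or above, 0 were higher and 4 lower, while 11.4% of the 3141 genes in that range were called higher and 13.2% lower. All 4, Rpl14, Rpl7a, Rps9 and Rplp0, were tested in the limma fit named above, in which 9 of the 34 had a difference above 0 and 25 below. The median difference was -0.11 in these members and -0.03 in all genes of the range. Of 17 members with a mean from 6 to 9, 4 were higher and 2 lower (23.5% and 11.8%), where 1331 of the 9522 genes in that range were higher and 1025 (10.8%) lower. Of 13 members below 6, 3 were higher and 1 lower (23.1% and 7.69%), where 35.3% of all genes below 6 were higher and 2.42% lower. Across the 64 members the correlation of level with difference was -0.35, and across all genes it was also -0.35. Genes share the arrays and the scaling, so the correlation is a description of these values.

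**Figure D1:**
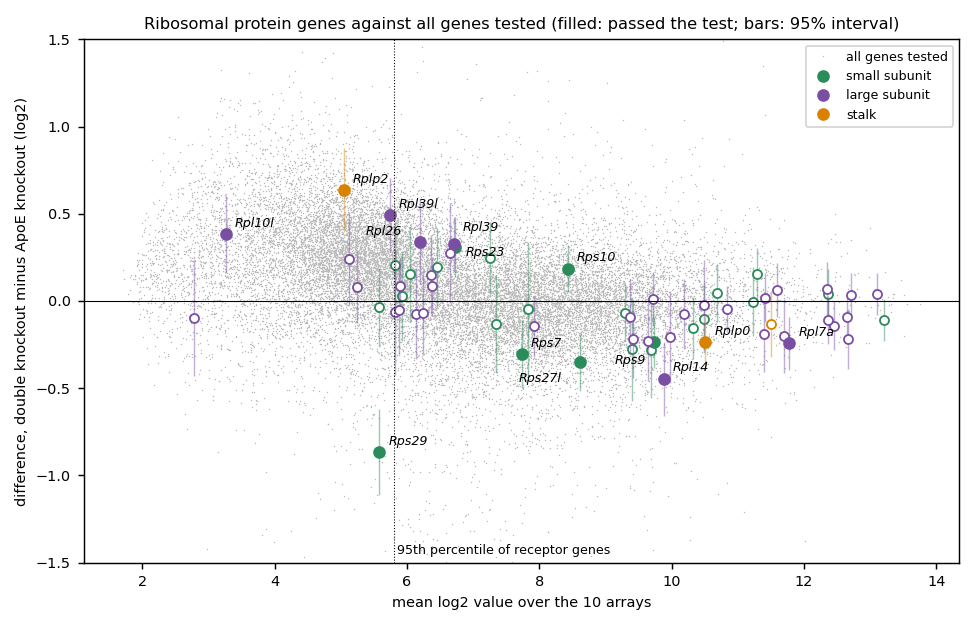
Difference between the groups (vertical axis, log2, double knockout minus ApoE knockout) against the mean log2 value over the 10 arrays (horizontal axis) for all genes tested (grey) and the 64 ribosomal protein genes (coloured by subunit, filled where the test was passed, bars showing the 95% interval of the difference). Genes beyond 1.5 either way lie outside the axis. The 34 members at 9 or above lie mostly a little below 0, and Rps29 and Rplp2 stand farthest from it, left of the receptor gene mark at 5.80.

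In the small subunit, 4 genes were lower and 2 higher among 24. Rps29, a zinc-binding protein of the head of the subunit, had the largest difference of any member. It read 5.85, 6.08, 6.10, 5.78 and 6.25 in the ApoE knockout and 5.13, 5.29, 5.24, 4.84 and 5.23 in the double knockout. Every double knockout aorta lay below every ApoE knockout aorta. The means were 6.01 ± 0.19 (SD, n = 5) and 5.15 ± 0.18 (SD, n = 5), and the difference of -0.87 (SE 0.11) is a 1.82-fold lower signal (limma adjusted p = 0.00047). The double knockout values lie within the range of the receptor genes, so the size of this fold is uncertain.

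Rps27l, the paralog of Rps27 that p53 induces, read 8.75, 8.78, 8.75, 8.78 and 8.88 in the ApoE knockout and 8.36, 8.59, 8.41, 8.26 and 8.57 in the double knockout. The groups did not overlap, and the difference was -0.35 (SE 0.08, 1.27-fold, limma adjusted p = 0.0072). Its partner Rps27 read 7.87, 7.74, 7.80, 8.07 and 7.77 against 8.43, 7.38, 7.46, 7.90 and 7.84. Double knockout replicate 1 was the highest of all 10 for Rps27 and the groups overlapped, with a difference of -0.05 (95% interval -0.43 to 0.33) that did not pass the test. Whether the paralog and its partner differ in response was not tested.

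Rps9, a protein near the entry of the messenger RNA channel, read 9.79, 9.94, 9.97, 9.75 and 9.81 in the ApoE knockout and 9.54, 9.66, 9.65, 9.57 and 9.65 in the double knockout. Again no value overlapped, with a difference of -0.24 (SE 0.07, 1.18-fold, limma adjusted p = 0.022); after quantile normalization the difference was -0.20 with an adjusted p of 0.050, which ended the call. The call was also lost without ApoE knockout replicate 2 or 3 (adjusted p up to 0.058). Rps7, which takes part in processing of the small subunit RNA and also binds Mdm2, read 7.74, 7.90, 7.94, 7.80 and 8.05 against 7.75, 7.60, 7.67, 7.54 and 7.35. Double knockout replicate 1 lay among the ApoE knockout values. The difference was -0.30 (SE 0.09, limma adjusted p = 0.025), and after centring on genes above the receptor level it was -0.27 with an adjusted p of 0.052. Leaving out ApoE knockout replicate 2, 3 or 5 or double knockout replicate 4 or 5 also ended it (adjusted p up to 0.058).

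Of the small subunit genes that were higher, Rps23 codes for a protein of the decoding centre. It read 6.56, 6.56, 6.60, 6.51 and 6.60 in the ApoE knockout, a narrow band, and 7.11, 6.72, 6.92, 6.88 and 6.75 in the double knockout. The groups did not overlap and the difference was 0.31 (SE 0.08, 1.24-fold, limma adjusted p = 0.014). Rps10, a protein that is ubiquitinated when ribosomes stall, read 8.28, 8.37, 8.28, 8.31 and 8.44 against 8.50, 8.56, 8.54, 8.44 and 8.58. Its groups touched at 8.44 without crossing, and the difference was 0.19 (SE 0.06, limma adjusted p = 0.042). Neither call held under each scaling: after quantile normalization Rps23 was at 0.19 with an adjusted p of 0.13, and after centring on the median Rps10 turned to -0.02. Rps10 was also lost in 8 of 10 fits without 1 array, all but those without ApoE knockout replicate 5 or double knockout replicate 4 (adjusted p 0.032 to 0.096).

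The other 18 small subunit genes did not pass the test, with differences between -0.28 and 0.25: Rps3, Rps4x, Rps4l, Rps6, Rps12, Rps13, Rps14, Rps15, Rps16, Rps18, Rps19, Rps20, Rps24, Rps25, Rps26, Rps27, Rps28 and Rpsa. Rps6, the substrate of the S6 kinases downstream of mTOR and the brightest member, read 13.24, 13.29, 13.26, 13.28 and 13.23 in the ApoE knockout and 13.13, 13.14, 13.14, 13.19 and 13.13 in the double knockout. Every double knockout aorta lay below every ApoE knockout aorta, by a small margin. The difference of -0.11 (SE 0.05) had an adjusted p of 0.15 in limma, which draws the spread of each gene toward that of all genes. Rps13 and Rps3 had the most negative values of this group, -0.28 each, with limma adjusted p of 0.11 and 0.14. Rps18, at 0.25, had a limma adjusted p of 0.068. Rps4x read 11.09, 11.23, 11.13, 11.22 and 11.50 against 11.13, 11.38, 11.23, 11.10 and 11.30, with a 95% interval of the difference from -0.20 to 0.20. The pseudogene Rps4l differed by 0.19 (SE 0.10, limma adjusted p = 0.17).

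In the large subunit, 2 genes were lower and 4 higher among 37. Rpl14, a surface protein of the subunit, was the clearest of the bright members. It read 9.94, 10.15, 10.06, 10 and 10.39 in the ApoE knockout and 9.58, 9.80, 9.60, 9.53 and 9.80 in the double knockout. The groups did not overlap, with means of 10.11 ± 0.18 (SD, n = 5) and 9.66 ± 0.13 (SD, n = 5) and a difference of -0.44 (SE 0.10, 1.36-fold, limma adjusted p = 0.0068). Rpl7a, an RNA-binding protein of the subunit whose start has the 21-base tract shown above, read 11.77, 12.04, 11.94, 11.90 and 11.84 against 11.58, 11.73, 11.62, 11.63 and 11.73. It too did not overlap, with a difference of -0.24 (SE 0.07, 1.18-fold, limma adjusted p = 0.024). Its call was lost without replicate 2 or 3 of the ApoE knockout or replicate 3 or 4 of the double knockout (adjusted p up to 0.056).

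Rpl39 and Rpl39l are a pair: Rpl39 lines the exit tunnel, and Rpl39l is its paralog known from the male germ line. Rpl39 read 6.66, 6.52, 6.53, 6.65 and 6.37 in the ApoE knockout and 6.83, 6.92, 6.87, 6.88 and 6.88 in the double knockout. Rpl39l read 5.66, 5.55, 5.53, 5.18 and 5.53 against 5.99, 5.93, 6.17, 5.94 and 5.88. Neither overlapped between the groups. Rpl39 was higher by 0.33 (SE 0.07, 1.26-fold, limma adjusted p = 0.0062) and Rpl39l by 0.49 (SE 0.10, 1.41-fold, limma adjusted p = 0.0039). All Rpl39l values of the ApoE knockout lie under the receptor mark of 5.80, and the difference is to be read beside the median shift of 0.29 of the receptor genes. After quantile normalization the values were 0.20 for Rpl39 (adjusted p = 0.051) and 0.28 for Rpl39l (adjusted p = 0.058).

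Rpl26, which sits near the tunnel exit and also binds p53 messenger RNA, read 6.01, 5.86, 6.00, 6.11 and 6.15 in the ApoE knockout and 6.75, 6.27, 6.38, 6.09 and 6.34 in the double knockout. Replicate 4 of the double knockout fell within the ApoE knockout values. The difference was 0.34 (SE 0.11, limma adjusted p = 0.042), and under quantile normalization it was 0.16 with an adjusted p of 0.35. The call was lost in 12 of 21 alternatives, 7 of them fits without 1 array: ApoE knockout replicates 1 to 4 and double knockout replicates 1, 3 and 5 (adjusted p 0.023 to 0.094 over the 10 such fits). Rpl10l, the paralog of Rpl10 used in male meiosis, read 3.12, 3.11, 2.88, 3.31 and 2.91 against 3.26, 3.45, 3.47, 3.67 and 3.39. These values lie far under the receptor mark. The difference of 0.38 (SE 0.10, limma adjusted p = 0.016) was 0.14 with an adjusted p of 0.36 under quantile normalization. Rpl10 shares its probe sets with other symbols and has no value here.

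The remaining 31 large subunit genes did not pass the test, with differences from -0.23 (Rpl9) to 0.28 (Rpl27a): Rpl3, Rpl3l, Rpl4, Rpl5, Rpl6, Rpl6l, Rpl7, Rpl8, Rpl9, Rpl10a, Rpl11, Rpl13, Rpl15, Rpl17, Rpl19, Rpl21, Rpl22, Rpl23a, Rpl27, Rpl27a, Rpl28, Rpl29, Rpl30, Rpl32, Rpl32l, Rpl34, Rpl35, Rpl37, Rpl37a, Rpl38 and Rpl41. Rpl28 read 12.65, 12.71, 12.69, 12.69 and 12.74 against 12.60, 12.59, 12.58, 12.65 and 12.59. Its groups did not overlap, and the difference of -0.09 (SE 0.06) had a limma adjusted p of 0.22. Rpl41, a peptide of the large subunit that is very short and basic, came nearest to the threshold, at -0.22 (SE 0.08, limma adjusted p = 0.057). Rpl21 and Rpl29, the other members among the 5 brightest, differed by 0.04 (SE 0.05) and 0.03 (SE 0.06).

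Rpl3, which helps form the peptidyl transferase centre, read 9.25, 9.80, 9.44, 9.48 and 9.66 in the ApoE knockout and 9.33, 9.25, 9.31, 9.19 and 9.45 in the double knockout. Its paralog of striated muscle, Rpl3l, read 5.05, 4.93, 4.84, 5.15 and 5.07 against 5.72, 5.20, 5.10, 5.11 and 5.10, all under the receptor mark, with double knockout replicate 1 standing above the rest. Their differences were -0.22 (SE 0.10) and 0.24 (SE 0.12), with limma adjusted p of 0.12 and 0.16. Markers of cardiac and skeletal muscle lay between 5.93 and 6.54 on average in the ApoE knockout and between 6.24 and 6.82 in the double knockout. Of the 12 markers, 3 were higher (25%, against 22.8% of all genes) and 0 lower. In double knockout replicate 1 these markers averaged 6.37, below replicates 2 (6.82) and 4 (6.53). Their part in Rpl3l was not tested. Rpl6l differed by -0.08 and Rpl32l, the dimmest member with group means of 2.83 and 2.73, by -0.10.

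Rpl5 and Rpl11, the Mdm2-binding pair, read 6.04 to 6.54 and 4.97 to 5.31 in the ApoE knockout. In the double knockout they read 6.09 to 6.45 and 5.07 to 5.43. Both overlapped, with differences of -0.07 (SE 0.11) and 0.08 (SE 0.10). Over all 50 members that did not pass, the 95% interval of the difference had a median half-width of 0.21. For 46 of them it lay within 0.5 either way.

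Of the 3 stalk genes, on their brightest probe sets, 1 was lower, 1 was higher and 1 did not pass the test. Rplp0, the base of the stalk, read 10.50, 10.72, 10.57, 10.64 and 10.69 in the ApoE knockout and 10.41, 10.44, 10.32, 10.33 and 10.45 in the double knockout. The groups did not overlap, and the difference was -0.23 (SE 0.07, 1.18-fold, limma adjusted p = 0.024). Under quantile normalization it was -0.19, with an adjusted p of 0.055, and the call was lost too without ApoE knockout replicate 2 or double knockout replicate 3 or 4 (adjusted p up to 0.057). Rplp1 read 11.43, 11.62, 11.59, 11.39 and 11.79 against 11.36, 11.45, 11.57, 11.38 and 11.42, overlapped, and did not pass (-0.13, SE 0.09, limma adjusted p = 0.26). Rplp2, which pairs with Rplp1 in the stalk, read 4.55, 4.79, 4.78, 4.60 and 4.90 against 5.42, 5.00, 5.42, 5.41 and 5.56. Every double knockout value was above every ApoE knockout value, by 0.64 on average (SE 0.11, 1.55-fold, limma adjusted p = 0.0022), yet all 10 lie under the receptor mark.

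**Figure D2:**
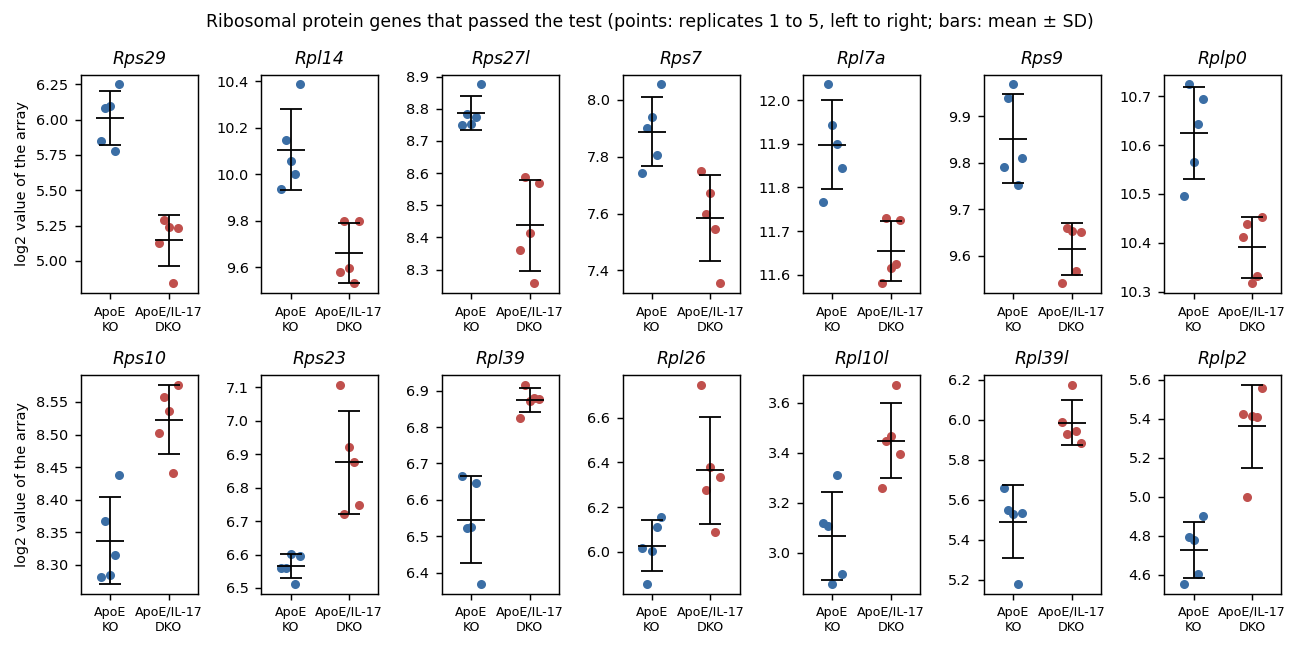
Log2 value of each aorta (points, by group, replicates 1 to 5 from left to right) for the 14 ribosomal protein genes that passed the test, with the mean and SD of each group (n = 5); each axis has its own range and does not start at 0. Values of the groups overlap for Rps7, Rpl26 and Rpl10l alone, and the distance is widest for Rps29 and Rplp2.

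Several members could be read on more than 1 probe set, and these did not always tell the same story. Of the 64 genes, 24 had further probe sets, 40 in all; 7 of the 40 were identical in every value to a brighter one of Rpl23a, Rps19 or Rps12. Of the 33 others, 21 differed in the direction of the gene's brightest set and 12 the opposite way, and 12 lay under the receptor mark, 5 of which were opposite. Adjusted over all probe sets in limma, 6 passed, 4 higher and 2 lower, where 25.9% of all probe sets passed.

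Rplp0 passed in both directions. Its second probe set read 6.30, 6.32, 6.27, 6.14 and 6.30 in the ApoE knockout and 6.46, 6.54, 6.50, 6.64 and 6.65 in the double knockout, higher by 0.29 (limma adjusted p = 0.015) without overlap. The second set of Rplp1 read 6.83, 6.73, 6.79, 6.83 and 7.17 against 7.37, 7.15, 7.31, 7.29 and 7.43, higher by 0.44 (limma adjusted p = 0.0095), although the brighter one was at -0.13. Averaging the probe sets of Rplp0 gave 0.03. For these stalk genes the sign of the change depends on the probe set, and the cause was not tested.

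Rpl7a had a second bright probe set with a mean of 11.59 that was lower by the same amount, -0.24 (limma adjusted p = 0.039). The remaining set, at 5.92, differed by 0.26 and did not pass. The second set of Rps9 was lower too, at -0.30 (limma adjusted p = 0.042). Rps18, not called on its brightest set, was higher by 0.59 on a set of mean 5.79 (limma adjusted p = 0.0016) and did not pass on the remaining set (0.23). Rpl27 likewise differed by 0.01 on its brightest set and was higher by 0.30 on a set of mean 5.69 (limma adjusted p = 0.016). The 5 sets of Rpl41 ran between -0.15 and -0.24, and none passed. Among 57 probe sets that join a member's symbol to others, 4 were higher and 1 lower (median 0.03), where 8742 of all 41345 probe sets were higher and 1950 lower (median 0.15).

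The bright ribosomal protein genes varied together from aorta to aorta. Within groups, the SD of the 34 members with a mean of 9 or above had a median of 0.10, against 0.12 for all genes of that range. With group means removed, the median correlation between pairs of these 34 over the 10 arrays was 0.41, and between pairs of all 64 members it was 0.23. These correlations share the arrays and their scaling and are given as a description. The mean of the 34 was 10.98, 11.14, 11.07, 11.07 and 11.21 in the ApoE knockout and 10.94, 11.07, 10.96, 10.92 and 11.03 in the double knockout. The groups overlapped: ApoE knockout replicate 1 lay below replicates 2 and 5 of the double knockout. ApoE knockout replicate 5 was the highest of its group for 22 of the 34 genes (64.7%, against 38.1% of all genes in the range). Replicate 1 was the lowest for 24 (70.6%, against 35.9%). In the double knockout, replicate 2 was the highest for 13 (38.2%, against 33.3%) and replicate 5 for 11 (32.4%, against 27.6%), shares near those of all genes.

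**Figure D3:**
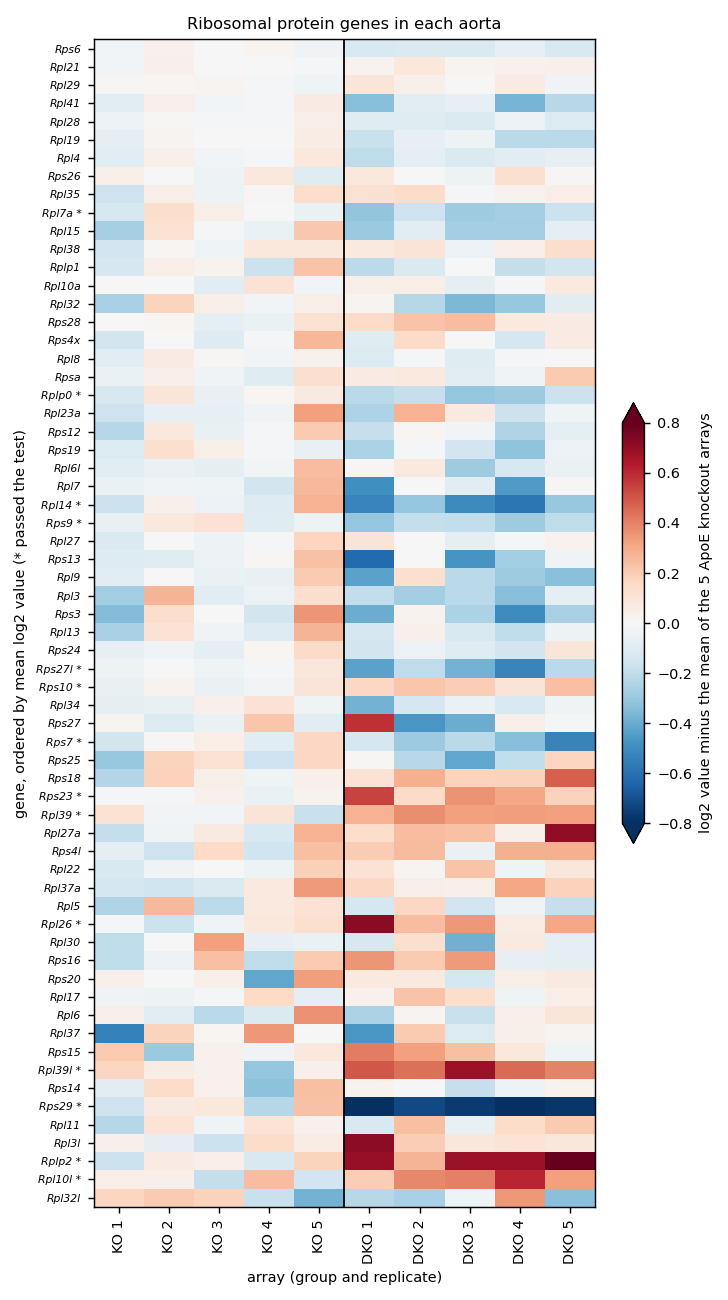
Value of each ribosomal protein gene minus its mean in the 5 ApoE knockout arrays (colour, log2, saturating at 0.8 either way), with genes as rows ordered by mean level, a star for those that passed the test, and aortas as columns by group. Dim genes tend to read higher in the double knockout, and the bright genes show ApoE knockout replicate 1 low and replicate 5 high within their group.

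Markers of several other cell types differed between the groups, in a fit that called 22.8% of all genes higher and 7.53% lower. The mean of 10 red cell markers was 8.35, 8.90, 8.62, 8.49 and 8.94 in the ApoE knockout and 7.05, 7.10, 6.65, 6.57 and 6.88 in the double knockout. Of the 10, 8 were lower, with a median of -1.21, Slc25a37 and Car2 leading. The order of the ApoE knockout aortas by red cell markers was the same as by the 34 bright ribosomal protein genes, with replicate 5 at the top and replicate 1 at the bottom. In the double knockout the orders were not the same: red cell markers ran 2, 1, 5, 3, 4 from the highest replicate to the lowest, and the 34 genes ran 2, 5, 3, 1, 4. The ApoE knockout order was not particular to red cells. Among lists described below, initiation factors had it too (9.37 in replicate 5, 9.26 in replicate 1), as did chaperones and importers (8.74 and 8.54). Both subunit assembly lists and the other TOP messages were also highest in replicate 5 and lowest in replicate 1, but elongation factors were not. B cell markers were lower in 5 of 12 (Cd79b and Cd79a leading), with means of 6.75 to 7.40 against 6.09 to 6.45, and T cell markers in 8 of 12 (Ccr7 and Cd3g leading), with 6.76 to 8.68 against 6.19 to 7.20. Neutrophil markers were lower in 7 of 12 and platelet markers in 8 of 10, with 1 higher. Smooth muscle markers and fibroblast markers were each higher in 3 of 10 and lower in 0, macrophage markers were lower in 1 of 11, and mast cell markers were lower in 5 of 9 and higher in 1. Of 10 endothelial markers, 2 were lower and 0 higher. Their means were 9.86, 10.17, 10.03, 10.04 and 10.14 against 9.56, 10.07, 9.66, 9.79 and 9.96. Of 10 adipocyte markers, 0 passed the test. Their means were 10.82, 9.62, 10.24, 10.12 and 8.97 against 9.91, 9.37, 10.12, 9.13 and 8.84, highest in ApoE knockout replicate 1 and lowest within that group in replicate 5. Blood and lymphoid cells also make ribosomal proteins, and the part of these cells in the members' values was not tested.

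**Figure D4:**
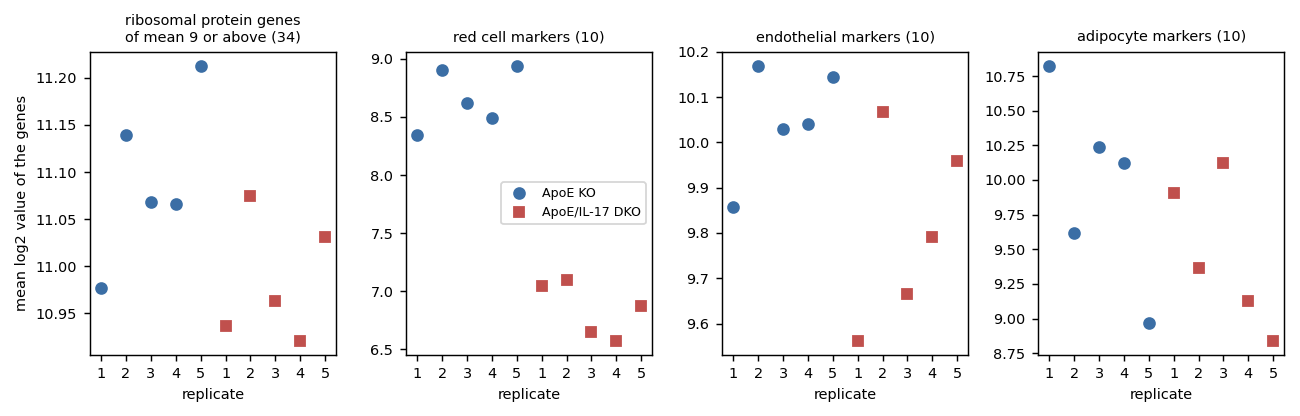
Mean log2 value in each aorta of the 34 ribosomal protein genes with a mean of 9 or above and of the marker genes of red cells, endothelium and adipocytes (vertical axes, each on its own scale that does not start at 0), by group and replicate. Ribosomal protein means overlap between the groups and red cell means do not. Within the ApoE knockout, replicate 5 is highest and replicate 1 lowest in both, as in other lists not drawn here. Within the double knockout the orders differ.

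The genes that build and serve the ribosome were counted in the same fit, in which 22.8% of all genes were higher and 7.53% lower. Of 4 ribosomal proteins with other symbols, Rpl22l1, a paralog of Rpl22, was higher by 0.27 (limma adjusted p = 0.044), and Fau, Rpl7l1 and Rps3a1 did not pass. Of 20 genes of RNA polymerase I transcription, which makes the ribosomal RNA, 2 were higher (Polr1e at 0.34 and Polr2k at 0.32) and 1 lower. That 1 was Ubtf, the activator that binds the ribosomal DNA promoter, at -0.33 (limma adjusted p = 0.012). Of 39 genes of small subunit assembly, Imp3 (-0.39) and Riok3 were lower and 0 higher. Riok3, a kinase of small subunit maturation that is also abundant in maturing red cells, read 10.41, 10.89, 10.25, 10.54 and 10.44 against 9.31, 9.47, 9.27, 9.36 and 9.54. It was lower by 2.17-fold without overlap (limma adjusted p = 0.00012), beside the red cell markers given above; their part was not tested.

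Of 45 genes of large subunit assembly, 3 were higher and 4 lower. Nop53, a nucleolar assembly factor that also binds p53, read 10.12, 10.33, 10.24, 10.19 and 10.36 in the ApoE knockout and 9.62, 9.71, 9.73, 9.63 and 9.90 in the double knockout. It was lower by 1.44-fold without overlap (limma adjusted p = 0.00094). The helicase Ddx54 (-0.31) and Rsl24d1 (-0.38) were lower too. Of 12 H/ACA and nucleolar proteins, Nhp2 (0.33) and Nolc1 (0.24) were higher and Ruvbl2 (-0.22) lower. Of 16 chaperones and importers of ribosomal proteins, the importin Ipo7 was higher (0.26) and Aamp lower (-0.36). The medians of these 4 sets of assembly genes, small subunit, large subunit, H/ACA, and chaperones and import, were -0.04, 0.01, -0.00 and 0.06, against 0.10 over all genes. Over all genes with a mean from 6 to 9, the range in which the average of each set lies, the median was 0.01.

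Among 32 translation initiation factors 3 were higher and 5 lower, with Eif5 (-0.44), Eif4h (-0.36) and Eif3h (-0.28) the leading ones, and a median of -0.01. Of 14 elongation factors, Gspt2 was higher (0.47) and Eif5a (-0.30) and Eef2k (-0.26), the kinase that restrains elongation, were lower. Of 21 other TOP messages, Nap1l1 was higher (0.29) and Eif3h and the poly(A)-binding protein Pabpc1 (-0.26) were lower. The median of the 21 was -0.04, beside -0.05 in the ribosomal protein genes and -0.03 in all genes with a mean of 9 or above. The averages of the initiation, elongation and TOP lists lie in that range, where 11.4% of all genes were higher and 13.2% lower. Of 22 genes of TOP control through mTOR, Mycn was higher (0.37) and Cnbp (-0.27), Rps6kb2 (-0.28) and Akt1s1 (-0.29) were lower. Larp1 differed by 0.14 and did not pass. Of 19 targets of p53, which also induces Rps27l, Eda2r (0.37) and Zmat3 (0.24) were higher and Plk2 (-0.59) and Bbc3 (-0.39) lower, while Cdkn1a and Mdm2 did not pass.

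The separate ribosome of mitochondria, whose proteins are encoded in the nucleus, showed other counts. Of 71 of its genes, 16 were lower and 2 higher, with a median of -0.14. The share lower was 22.5%, against 7.53% of all genes tested and 10.9% of the cytosolic members. Among all genes with a mean from 6 to 9, the range in which the average of this list lies, 10.8% were lower. Mrpl14 read 7.86, 7.78, 7.92, 7.97 and 7.77 in the ApoE knockout and 7.52, 7.31, 7.36, 7.26 and 7.31 in the double knockout, lower by 1.42-fold (limma adjusted p = 0.00088). Mrpl57 read 8.63, 8.33, 8.59, 8.30 and 8.31 against 7.95, 8.06, 7.86, 7.75 and 7.92 (limma adjusted p = 0.0023), and neither overlapped. Mrpl40 went up without overlap, by 0.42 (limma adjusted p = 0.0030). The number lower was 9 without double knockout replicate 4 and 10 without ApoE knockout replicate 3, 25 after quantile normalization and 46 after centring on the median. The share of all genes called lower in these fits was 5.43%, 5.05%, 11.2% and 25.4%, so it moved with the count. Whether the lists differ from each other was not tested.

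**Figure D5:**
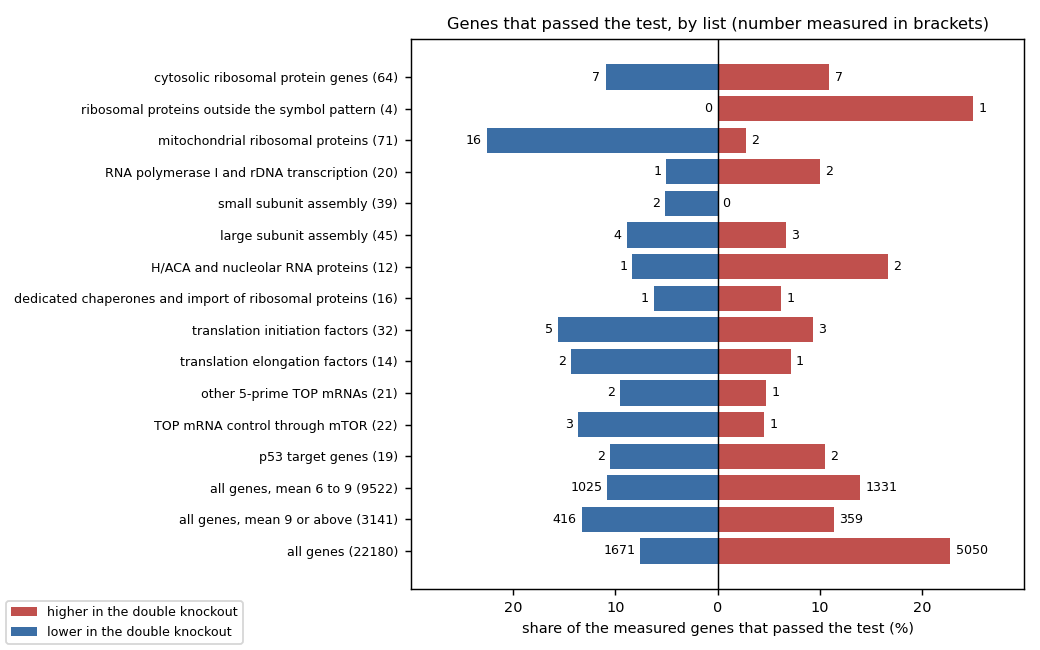
Share of the measured genes of each list that passed the test (horizontal axis, percent; lower in the double knockout to the left, higher to the right; number of genes at each bar). The ribosomal protein genes have 7 on each side and the mitochondrial ribosomal proteins have 16 on the lower side. The bars for all genes and for all genes with a mean from 6 to 9 lean to the higher side. That for all genes with a mean of 9 or above leans a little to the lower side.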

How the data were processed

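The deposited table holds 1 log2 value per probe set and array from Affymetrix Mouse Gene 2.0 ST arrays of 10 aortas; base 2 was inferred from the range. Limma is named per the submitters' processing notes, without version or role. The sources used here do not give how the authors corrected background, normalized and summarized probes, and no batch was available as a term. Of 41345 probe sets, 23521 had 1 symbol in the platform annotation, 1814 several and 16010 none.

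Values were used as deposited, with the brightest probe set per gene. Differences, SE and adjusted p come from lmFit and eBayes (limma 3.58.1, R 4.3.3; group only, two-sided, Benjamini-Hochberg over 22180 genes, threshold 0.05), checked on simulated data. Precision is limited by the number of arrays. Named were all members called, the 5 brightest and 5 dimmest, paralogs with partners, the stalk genes and members with opposed probe sets. Up to 3 called genes per related list and 2 per marker list were also named, smallest p first. For the mTOR and p53 lists all called genes were named, which goes beyond that limit. Members with groups that do not overlap, or near the threshold, Rpl5, Rpl11, Rps13, Rps3, Larp1, Cdkn1a and Mdm2 were added after their values were seen. Members and lists were chosen with earlier results of these data known. Sequences are RefSeq's, GRCm38.p6. Figures used matplotlib 3.10.9.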

Additional observations from a re-analysis of the deposited data

Results flagged for a closer look

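In 12 of 128 sets of 5 aortas (64 genes in 2 groups) a single aorta stood away from the other 4 by more than Dixon's critical value of 0.71 for the ratio of gap to range. Chance gives about 5% of such sets where values are normal and sets independent. The genes share the arrays, so these sets are not independent and the 5% is no measure of chance here. The share over all genes is not given. ApoE knockout replicate 5 was the high value for 4 of the 12: Rpl23a at 10.83 (nearest other value 10.48), Rpl6l at 10.46 (10.20), Rpl9 at 9.96 (9.75) and Rps27l at 8.88 (8.78). ApoE knockout replicate 4 was high for Rpl17 at 6.01 (5.83) and low for Rpl39l at 5.18 (5.53). In the double knockout, replicate 1 was high for Rpl3l at 5.72 (5.20) and low for Rpl34 at 7.61 (7.85). Replicate 2 was low for Rplp2 at 5.00 (5.41), and replicate 4 was high for Rps6 at 13.19 (13.14). Replicate 3 was low for Rps20 at 5.78 (5.96) and for Rps4l at 6.30 (6.55). The cause was not tested.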

How the results depend on the processing

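The reported counts are 7 higher and 7 lower, at a median of -0.05. The number higher was 2 after quantile normalization, 2 after centring on the median of all probe sets, 4 among genes above the receptor level (14.9% of all genes tested there), 11 with the dimmest probe set of each gene (23.1% of all genes) and 3 at an adjusted p of 0.01 (10.5%). The number lower was 27 after centring on the median and 3 at 0.01 (2.86%). The median was -0.26 after that centring and 0.033 with the dimmest probe sets. Leaving out 1 array gave 5 to 7 higher, 3 to 10 lower and medians from -0.07 to -0.02. Reversed were Rps10 (-0.019 after centring), Rplp0 (0.029 with probe sets averaged, 0.29 with the dimmest) and Rpl7a (0.26 with the dimmest). Of the 14 called genes, 7 were also called after quantile normalization and 9 after centring. Rpl14 and Rps27l were called in all 21 alternatives, and Rps29 and Rplp2 in the 20 in which they were tested. The fit limited to genes above the receptor level left Rps29 and Rplp2 out. Each of these genes has 1 probe set, so averaging probe sets or taking the dimmest could not change its values. Replicate numbers are shared by the groups, and nothing in the labels says that a number marks a shared litter or day. Deviations of same-numbered aortas correlated at -0.13 to 0.26, above 0.1 in 3 of 5 pairs. Of 10 aortas, 6 correlated best with their own number in the other group. Whether the numbers mark pairs was not tested, and the reported fit did not use them. With the replicate number as a block, 6 were higher and 6 lower, where 21.7% of all genes were higher and 8.04% lower. In that fit Rpl26, Rps10 and Rps7 had limma adjusted p of 0.055, 0.068 and 0.062, and Rpl27a passed (0.28, limma adjusted p = 0.029). An alternative that adds 14 probe sets pairing a member with pseudogenes was chosen after seeing the data and gave 8 higher and 8 lower. Of all genes in that fit, 22.8% were higher and 7.53% lower.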
